A study of Macaca mulatta with 12 samples.

Results

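Voltage-gated potassium channels set how quickly a neuron repolarises and how often it can fire. The set described here was defined by 8 gene symbols: the pore subunits KCNA1, KCNA2, KCNC1, KCND3, KCNH2 and KCNMA1, and the auxiliary beta subunits KCNAB1 and KCNAB2. All non-control probe sets naming exactly 1 of these symbols were taken. This gave 17 probe sets for 7 of the 8 genes. In the whole table of 22283 probe sets, 19065 non-control probe sets named exactly 1 gene, for 11963 genes. No probe set with that symbol was found for KCNA2, which was not analysed here. A probe set is a group of short probes whose signals are combined into 1 intensity. KCNAB1 and KCND3 had 4 probe sets each, KCNMA1 had 3, KCNAB2 and KCNH2 had 2 each, and KCNA1 and KCNC1 had 1 each. Of the 17, 10 probe sets, covering all 7 genes, were bright enough to be tested.

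The samples were total RNA from the lateral geniculate nucleus (LGN) of monocularly deprived rhesus macaques, with 1 human-probe Affymetrix array for each of the 6 layers on either side of the brain. The 6 deprived samples were layers 2, 3 and 5 ipsilaterally and layers 1, 4 and 6 contralaterally, and the 6 non-deprived samples were the same layers on the opposite sides. All 12 samples came from deprived animals, so the non-deprived layers were driven by the open eye of such an animal and no untreated animal was included. The sources used here do not state how or for how long the eye was deprived, the animals' ages or number, or which samples an animal contributed. The labels give only layer numbers, so cell class follows textbook anatomy: the 4 samples of layers 1 and 2 are magnocellular, and the 8 of layers 3 to 6 parvocellular. P-values measure the spread between these samples, which may be partly technical, and are too small as statements about animals where samples shared one.

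As background, KCNA1 and KCNA2 encode Kv1.1 and Kv1.2, low-threshold channels that cluster along axons beside the nodes of Ranvier and limit repetitive firing. KCNAB1 and KCNAB2 encode cytoplasmic beta subunits that bind Kv1 channels, and the KCNAB1 protein can add fast inactivation. KCNC1 encodes Kv3.1, a fast delayed rectifier of neurons that fire at high rates. KCND3 encodes Kv4.3, which carries the transient A-type current of cell bodies and dendrites. KCNH2 encodes the ERG channel Kv11.1, best known from cardiac repolarisation and also present in neurons. KCNMA1 encodes the pore of the BK channel, which opens on depolarisation and intracellular calcium. Geniculate relay cells switch between tonic and burst firing, and potassium currents help to shape both modes.

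The arrays had been scaled to almost the same trimmed mean (1500.45 to 1500.6), but their median intensity was 586 ± 83.4 (SD, n = 6) ipsilaterally and 468 ± 39.7 (n = 6) contralaterally. The deprived layer 2 array correlated least with the others (mean r 0.868, against 0.897 to 0.934). It also had a high 3'/5' ratio of the GAPDH control, a measure that rises as RNA degrades: 9.38, against 11 in deprived layer 5 and 2.21 to 5.65 elsewhere. Geniculate tissue was checked against marker genes fixed for each cell type. Of 8 relay neuron markers 6 were tested, among them SLC17A6, TCF7L2 and CACNA1G, while PRKCD and GBX2 lay below the filter. Summed intensity of 6 general neuron markers was lower in every deprived sample (317701 to 361944) than in every non-deprived sample (375721 to 415658), and each of the 6 had a negative deprivation change, none past the threshold. All 6 oligodendrocyte markers had a positive deprivation change (median log2 0.31), as had 6 of 7 endothelial and mural (0.39), 5 of 6 astrocyte (0.30) and 2 of 2 microglial markers (0.34), also with none past the threshold. Some of these were near 0: MBP (0.08 ± 0.13, SE), UGT8 (0.07 ± 0.18), PECAM1 (0.05 ± 0.21) and ALDH1L1 (0.06 ± 0.29). Of all 11105 tested probe sets 5963 had a positive change, and array medians were 0.14 higher in deprived samples on the log2 scale. The other neuronal lists were mixed. Of the relay neuron markers 2 of 6 had a positive deprivation change (median log2 -0.18), and of the interneuron markers 3 of 4 (0.30), none past the threshold. Summed intensity of either list overlapped between deprived and non-deprived samples. In bulk layers, fewer cells of a type and less RNA per cell cannot be told apart.

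The first comparison asked whether the channels differ between the magnocellular and parvocellular layers. KCND3, the A-type channel gene, was the member that rose in magnocellular layers, by the 1 of its 4 probe sets that was tested. The rise was 1.88-fold (log2 change 0.91 ± 0.19, SE, limma adjusted p = 0.0316). This probe set, 213832_at, read 2585.6 and 3796 in layer 1 and 5094 and 2810 in layer 2. In the 8 parvocellular samples it ran from 1377 to 2586.2 with a median of 1769. The groups met at their edges, since the lowest magnocellular sample (non-deprived layer 1) equalled the highest parvocellular one (deprived layer 5) to within 1 unit. The mean was 3571 ± 1140 (SD, n = 4) against 1873 ± 415 (n = 8). The log2 difference was 0.83 within the ipsilateral and 0.99 within the contralateral hemisphere, and 1.15 among deprived and 0.66 among non-deprived samples.

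Thus 1 of 10 member probe sets passed, where 0.72% of all 11105 tested probe sets did and 0.297% passed as higher in magnocellular layers. The members were chosen with earlier results of these data known. Of the 10 probe sets 3 are of KCNAB1 and 2 of KCNH2, so they are not independent. Member counts set beside shares of all probe sets, here and below, therefore describe the members and do not test them as a set. No member's classes were free of overlap, as 1.5% of all tested probe sets were. A change here is the log2 difference from a fit of deprivation, cell class and hemisphere together, and a probe set passes at a Benjamini-Hochberg adjusted p under 0.05. The KCND3 call was lost without any 1 of 7 arrays (deprived layers 1, 2, 3 and 6 and non-deprived layers 2, 3 and 5), with log2 changes of 0.80 to 1.06 and adjusted p from 0.0226 to 0.167 over the 12 such fits. For the ACTB control, the ratio of 3' to 5' signal was 46.4 ± 15.1 (SD, n = 4) in magnocellular and 25.7 ± 8.79 (n = 8) in parvocellular samples, and with it as a covariate the KCND3 change was 0.62 ± 0.31 (limma adjusted p = 1). In the same comparison the oligodendrocyte genes MAG (-1.26) and MBP (-0.64) fell in magnocellular layers, 2 of 6 such markers past the threshold. Of the other markers, MOBP (-0.56) and CNP (-0.50) were negative and UGT8 (0.22) and MOG (0.06) positive, none past the threshold. The summed marker intensity was 58797 to 84613 in magnocellular and 83772 to 145141 in parvocellular samples. Whether the makeup of the layers bears on KCND3 was not tested.

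**Figure D1:**
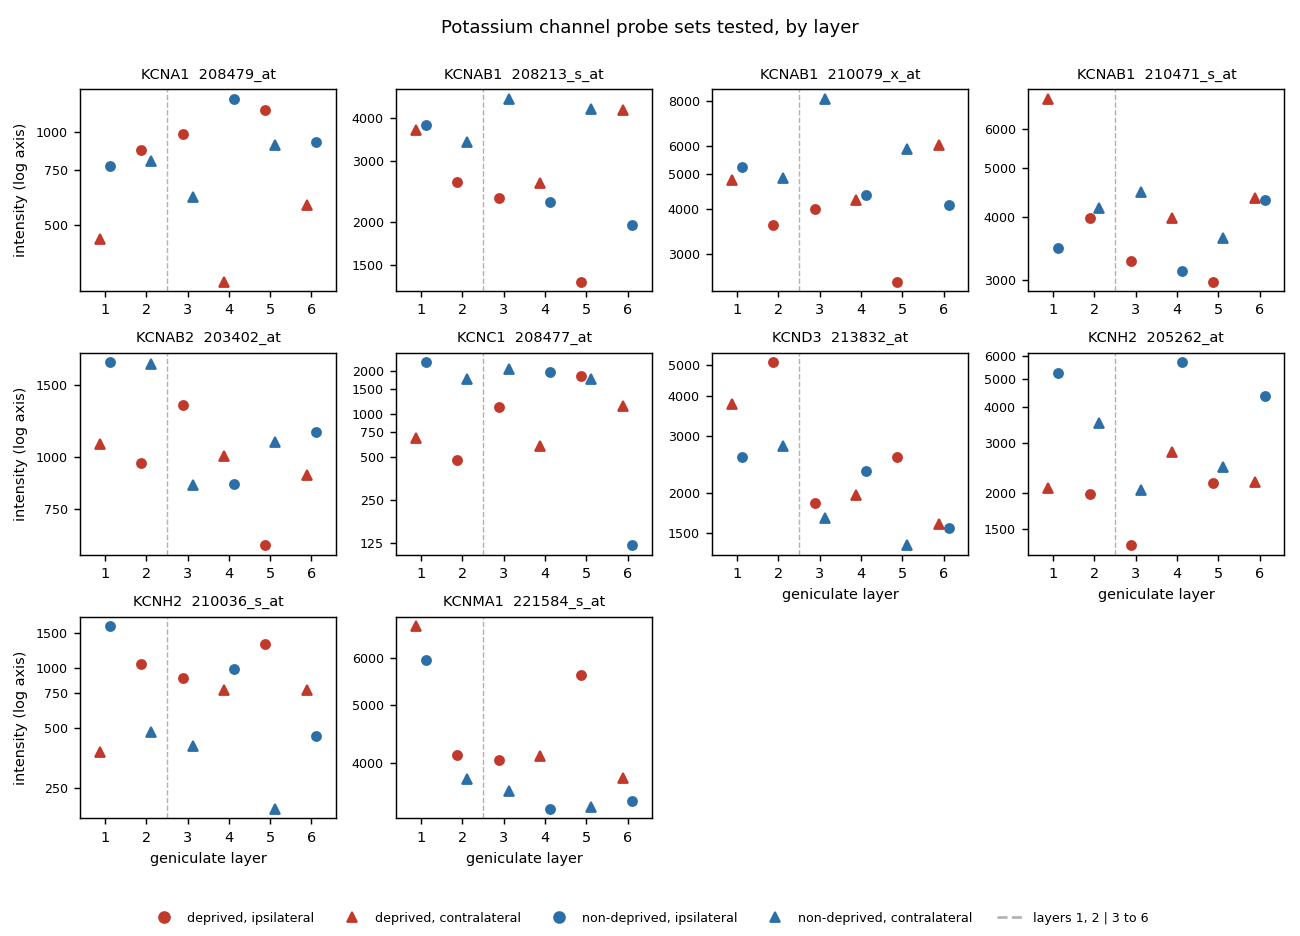
Intensity (log axis, its range differing between panels) of the 10 tested probe sets in each of the 12 samples, by layer, with deprived samples in red, non-deprived in blue, circles ipsilateral and triangles contralateral. KCND3 lies at 2585.6 to 5094 in layers 1 and 2 and at 1377 to 2586.2 in layers 3 to 6, left and right of the dashed line.

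The other tested members did not pass between classes. KCNAB2, a beta subunit, read 1707 and 1076 in layer 1 and 967.9 and 1691 in layer 2, and 610 to 1343 with a median of 957.9 in parvocellular samples. The higher magnocellular samples, 1707 and 1691, were non-deprived, and the groups overlapped (log2 change 0.46 ± 0.23, limma adjusted p = 0.365, positive in both hemispheres). KCNMA1, the BK pore, read 5973 and 6800 in layer 1, 4133 and 3755 in layer 2, and 3344 to 5635 with a median of 3683 in parvocellular samples. Its high magnocellular values were both from layer 1, while layer 2 lay inside the parvocellular range (0.38 ± 0.19, limma adjusted p = 0.366). Of the 10 probe sets, 8 had a positive and 2 a negative class change, with a median of 0.25, against 4604 positive of 11105 and a median of -0.065 over all tested probe sets.

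For the remaining members the class intervals included 0. KCNH2, the ERG channel, had a change of 0.18 (95% interval -0.37 to 0.72) by probe set 205262_at and 0.24 (-0.51 to 0.98) by 210036_s_at. KCNA1, Kv1.1, had -0.16 (-0.70 to 0.37). KCNC1, Kv3.1, had 0.07 (-1.24 to 1.37), the widest of the intervals. The 3 tested probe sets of KCNAB1 had 0.30, 0.26 and -0.02, with limma adjusted p from 0.53 to 0.981.

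The second comparison asked which channels differed between layers of the deprived and of the open eye. No member passed, and the nearest was KCNH2, with a log2 change of -0.84 ± 0.24 by probe set 205262_at (limma adjusted p = 0.19) and the deprived sample lower in 6 of 6 layers. In KCNC1 the deprived sample was the lower in 4 of 6 layers, while KCND3 was higher in 5 of 6 and KCNMA1 in 6 of 6. Of the 10 probe sets 0 passed by limma, where 0.063% of all tested probe sets did, and 3 had an unadjusted p under 0.05, where 12% of all did. The changes were negative for 6 and positive for 4, with a median of -0.30, against 5142 negative of 11105 and a median of 0.025 overall. No member's deprived and non-deprived values were free of overlap, against 0.684% of all tested probe sets.

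**Figure D2:**
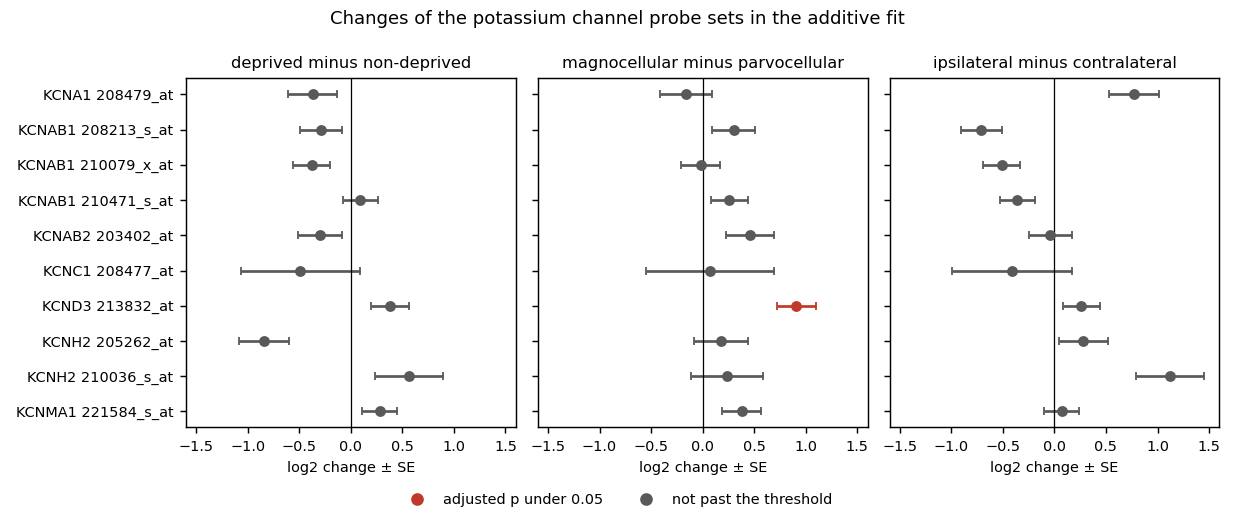
Log2 change with its standard error for the 10 tested probe sets in the 3 terms of the additive fit (deprivation, cell class, hemisphere). KCND3 between cell classes (0.91 ± 0.19, red) is the single change past an adjusted p of 0.05, and KCNH2 205262_at is lowest with deprivation (-0.84 ± 0.24).

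KCNH2 by probe set 205262_at ran from 1318 to 2783 with a median of 2133 in deprived samples, and from 2064 to 5720 with a median of 3947 in non-deprived samples. Non-deprived layers 1, 2, 4 and 6 lay above every deprived sample, and non-deprived layers 3 and 5 lay among them. The means were 2089 ± 470 and 3903 ± 1480 (SD, n = 6 each). The log2 difference within layers was -1.33, -0.83, -0.65, -1.04, -0.19 and -1.0 for layers 1 to 6. By hemisphere, it was -1.51 ipsilaterally and -0.17 contralaterally, a contrast that was not tested. Within a hemisphere the deprived and non-deprived samples are different layers. A difference between the sides therefore cannot be told apart from one between layers 1, 4 and 6 and layers 2, 3 and 5. Over all other settings the change stayed between -0.99 and -0.67 without passing (limma adjusted p from 0.107 to 0.703).

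The other KCNH2 probe set, 210036_s_at, had the opposite sign, 0.56 ± 0.33 (limma adjusted p = 0.529). It ran from 378 to 1325 with a median of 836.2 in deprived samples and from 194.6 to 1622 with a median of 463.7 in non-deprived samples. The deprived sample was higher in 4 of 6 layers, most in layer 5 (194.6 against 1325), and lower in layer 1 (1622 against 378) and layer 4. Within an array, the log2 ratio of 205262_at to 210036_s_at was 1.33 ± 0.74 in deprived and 2.74 ± 0.70 in non-deprived samples (SD, n = 6 each). The difference of -1.40 had an exact permutation p of 0.013 (two-sided), which became 0.221 after Benjamini-Hochberg adjustment over the 34 comparisons of probe-set pairs. Unequal change of the KCNH2 probe sets with deprivation therefore did not pass.

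**Figure D3:**
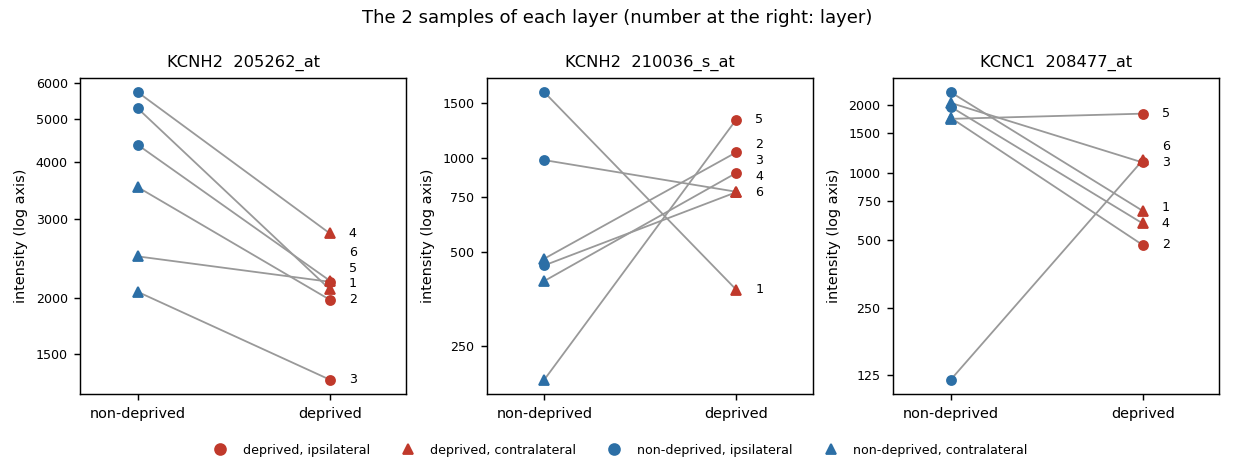
Intensity (log axis) of both KCNH2 probe sets and of KCNC1, with a line joining the non-deprived and the deprived sample of each layer and the layer number at the right. All 6 lines of KCNH2 205262_at go down, 4 of 6 of 210036_s_at go up, and the KCNC1 line of layer 6 starts from 119.5.

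KCNC1, the fast delayed rectifier, had a deprivation change of -0.49 ± 0.58 (limma adjusted p = 0.799). It ran from 476.7 to 1837 with a median of 895 in deprived samples and from 119.5 to 2288 with a median of 1865 in non-deprived samples. In 5 of 6 non-deprived samples it lay between 1742 and 2288, and in non-deprived layer 6 it was 119.5, close to the floor of 110.8. Without that array the change was -1.22 ± 0.26 (limma adjusted p = 0.058), still not past the threshold. The within-layer log2 differences were -1.76, -1.88, -0.88 and -1.73 in layers 1 to 4, 0.08 in layer 5 and 3.25 in layer 6.

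KCND3 by 213832_at had a deprivation change of 0.38 ± 0.18 (unadjusted p = 0.0479, limma adjusted p = 0.414). Deprived samples ran from 1603 to 5094 with a median of 2278, and non-deprived samples from 1377 to 2810 with a median of 2013. The deprived sample was higher in all layers but layer 4, by 0.55 and 0.86 in the magnocellular layers 1 and 2 and by 0.91 in layer 5. KCNMA1 by 221584_s_at ran from 3776 to 6800 with a median of 4118 in deprived samples and from 3344 to 5973 with a median of 3525 in non-deprived ones. Its differences were positive in 6 of 6 layers but small, 0.13 to 0.29 outside layer 5 (0.74), with a fitted change of 0.28 ± 0.17 (limma adjusted p = 0.57).

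Among the Kv1 genes, KCNA1 had a deprivation change of -0.37 ± 0.24 (95% interval -0.88 to 0.13), with 328.4 to 1178 in deprived and 614.7 to 1279 in non-deprived samples. The deprived sample was lower in layers 1, 4 and 6 and higher in layers 2, 3 and 5, so its sign followed the hemisphere of the deprived sample. KCNAB1 by 210079_x_at had -0.38 ± 0.18 (unadjusted p = 0.0462, limma adjusted p = 0.409) and in 5 of 6 layers its deprived sample was the lower one. Its values were 2511 to 6028 with a median of 4131 in deprived and 4094 to 8130 with a median of 5067 in non-deprived samples. KCNAB1 by 208213_s_at had -0.29 ± 0.20, and by 210471_s_at 0.09 ± 0.17. KCNAB2 had -0.30 ± 0.21 (limma adjusted p = 0.631), with 610 to 1343 in deprived and 858.3 to 1707 in non-deprived samples.

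Deprivation changes were also compared between classes by adding their interaction to the fit. By limma 0 of 10 member probe sets passed, as did 0% of all tested probe sets (208 passed without deprived layer 1, no member among them), and 1 member had an unadjusted p under 0.05 (8.73% of all did). That member was KCNH2 210036_s_at, whose deprivation difference was -0.48 in magnocellular and 1.09 in parvocellular layers (unadjusted p = 0.0181, limma adjusted p = 0.495). Its magnocellular layers went opposite ways, with -2.1 in layer 1 and 1.13 in layer 2. The parvocellular layers 3 to 6 had 1.15, -0.34, 2.77 and 0.78. KCNC1 had -1.82 in magnocellular and 0.18 in parvocellular layers (limma adjusted p = 0.642), the latter holding the sample at 119.5. KCNAB2 had -0.74 and -0.08 (limma adjusted p = 0.691).

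Hemisphere, the remaining term of the fit, gave larger fitted differences than deprivation in KCNA1 and KCNAB1, although none passed and the terms were not tested against each other. KCNA1 was 1003 ± 191 (SD, n = 6) ipsilaterally and 613.7 ± 215 (n = 6) contralaterally, with the ipsilateral sample higher in 6 of 6 layers (0.77 ± 0.24, limma adjusted p = 0.129). KCNAB1 went the other way by its 3 tested probe sets. Probe set 208213_s_at read 2392 ± 816 ipsilaterally and 3781 ± 715 contralaterally (-0.71 ± 0.20, limma adjusted p = 0.113), 210079_x_at had -0.51 ± 0.18 and 210471_s_at had -0.36 ± 0.17. KCNH2 210036_s_at had 1.12 ± 0.33 (limma adjusted p = 0.12), with 1053 ± 397 against 500.8 ± 233. Of the 10, 0 passed by limma (0.108% of all did), and 5 had an unadjusted p under 0.05, where 20.1% of all tested probe sets did. Hemispheres overlapped for all 10, against 1.29% of all that did not overlap.

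RNA quality measures differed between the hemispheres too: the 3'/5' ratio was 6.14 ± 3.37 ipsilaterally and 3.2 ± 0.721 contralaterally for GAPDH, and 39.7 ± 17 and 25.5 ± 7.92 for ACTB (SD, n = 6 each). Once GAPDH entered the fit as a covariate, the hemisphere change was 0.70 ± 0.30 for KCNA1, -0.50 ± 0.25 for KCNAB1 208213_s_at and 0.78 ± 0.40 for KCNH2 210036_s_at (limma adjusted p = 0.873 each). With the ACTB ratio instead, the changes were 0.94 ± 0.34, -0.67 ± 0.29 and 1.19 ± 0.47 in the same order (limma adjusted p = 0.384, 0.416 and 0.409).

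Array medians differed between hemispheres in the same samples, by 0.32 on the log2 scale, and centring each array on its median takes that shift off. After centring, the hemisphere change was 0.45 ± 0.22 for KCNA1 and -1.02 ± 0.22 for KCNAB1 208213_s_at (limma adjusted p = 0.193 and 0.0505), so the opposite signs of the channel and its beta subunit stayed. Centring takes 0.14 off each deprivation change and adds 0.09 to each class change. It turned the hemisphere sign of KCND3 (0.26 to -0.05), KCNH2 205262_at (0.28 to -0.03) and KCNMA1 (0.07 to -0.24). It also turned the sign of KCNAB1 210471_s_at with deprivation and of KCNAB1 210079_x_at between classes. Without non-deprived layer 6, KCNH2 210036_s_at passed between hemispheres (1.3 ± 0.33, limma adjusted p = 0.0345), in a fit where 851 of all tested probe sets passed, against 12 with all arrays.

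By layer, with 2 samples each, KCND3 was ordered 2, 1, 4, 5, 3 and 6, with means of 3952, 3191, 2161, 1982, 1769 and 1579. Layers 1 and 4 did not overlap, nor did layers 3 and 6, while the other neighbours in that order did. The order was taken from these same values, and the share of all probe sets with such gaps was not computed. Gaps between neighbouring layers, here and for the genes below, are therefore descriptions. KCNMA1 was highest in layer 1 (mean 6386, samples 5973 and 6800), above both samples of layer 5 (3375 and 5635), and from layer 5 downwards each neighbour overlapped the next, with means of 4505 to 3617. KCNAB2 was ordered 1, 2, 3, 6, 4 and 5, with means falling from 1391 to 851.2 and every neighbour overlapping. KCNH2 by 205262_at had its highest mean in layer 4 (4252) and its lowest in layer 3 (1691, samples 1318 and 2064), which lay below both samples of layer 5 (2173 and 2474). KCNA1 had its highest mean in layer 5 (1042, samples 906.3 and 1178), above both samples of layer 2 (801.6 and 873), and its lowest in layer 1 (611.1). KCNC1 had its highest mean in layer 5 (1789, samples 1742 and 1837), where its samples were close together, and neighbours overlapped throughout its order.

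Probe sets of the same gene were compared with each other. A suffix of _s_at marks probes that match several transcripts and _x_at probes that may bind other genes too, as general knowledge of this array type. For KCNAB1, 208213_s_at and 210079_x_at moved together over the 12 arrays (Pearson r = 0.91), and each correlated less with 210471_s_at (0.49 and 0.40). The 2 KCNH2 probe sets had r = 0.16, and the KCNAB2 pair had r = -0.17. These arrays share layers, hemispheres and possibly animals, so the correlations are descriptions. In all, 17 pairs were compared in 2 contrasts, of which 4 pairs held tested probe sets only and the others at least 1 probe set below the filter, and 0 of 34 exact permutation tests passed after adjustment (smallest adjusted p 0.221), with 4 at an unadjusted p under 0.05. Besides KCNH2 with deprivation these were KCNMA1 221583_s_at against 221584_s_at between classes (-1.15, exact p = 0.00808, adjusted p = 0.221), KCNAB1 208213_s_at against 210079_x_at between classes (0.32, exact p = 0.0222, adjusted p = 0.252), and KCNAB1 210079_x_at against 210471_s_at with deprivation (-0.47, exact p = 0.0455, adjusted p = 0.386).

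The 7 probe sets below the filter add little to these contrasts, and 0 of them passed by limma when all probe sets were tested (adjusted p from 0.376 upwards). KCND3 211827_s_at was under the floor in 10 of 12 samples and 215014_at in 11 of 12. Both were highest in deprived layer 2, at 592.8 and 395.7, against 39.2 to 146.8 and 2.7 to 84.5 in the other samples. Deprived layer 2 was also the highest sample of the tested KCND3 probe set (5094) and is the array that correlated least with the rest. Without it the KCND3 class change was 0.80 ± 0.21 (limma adjusted p = 0.115). KCND3 211301_at went the other way, with 118.4 in deprived layer 2, its lowest value, and up to 898.9 in deprived layer 5. With no filter its class change was -0.32 ± 0.63, negative in both hemispheres. That of 211827_s_at was 0.55 ± 0.38 and that of 215014_at 0.46 ± 0.28. KCNMA1 221583_s_at was also lowest in deprived layer 2 (116.4) and highest in deprived layer 5 (669), while 214921_at was highest in non-deprived layer 4 (1219). KCNAB1 210078_s_at ranged from 59.6 to 486.1 and KCNAB2 211791_s_at from 90.9 to 454.2, with 3 and 2 samples under the floor.

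**Figure D4:**
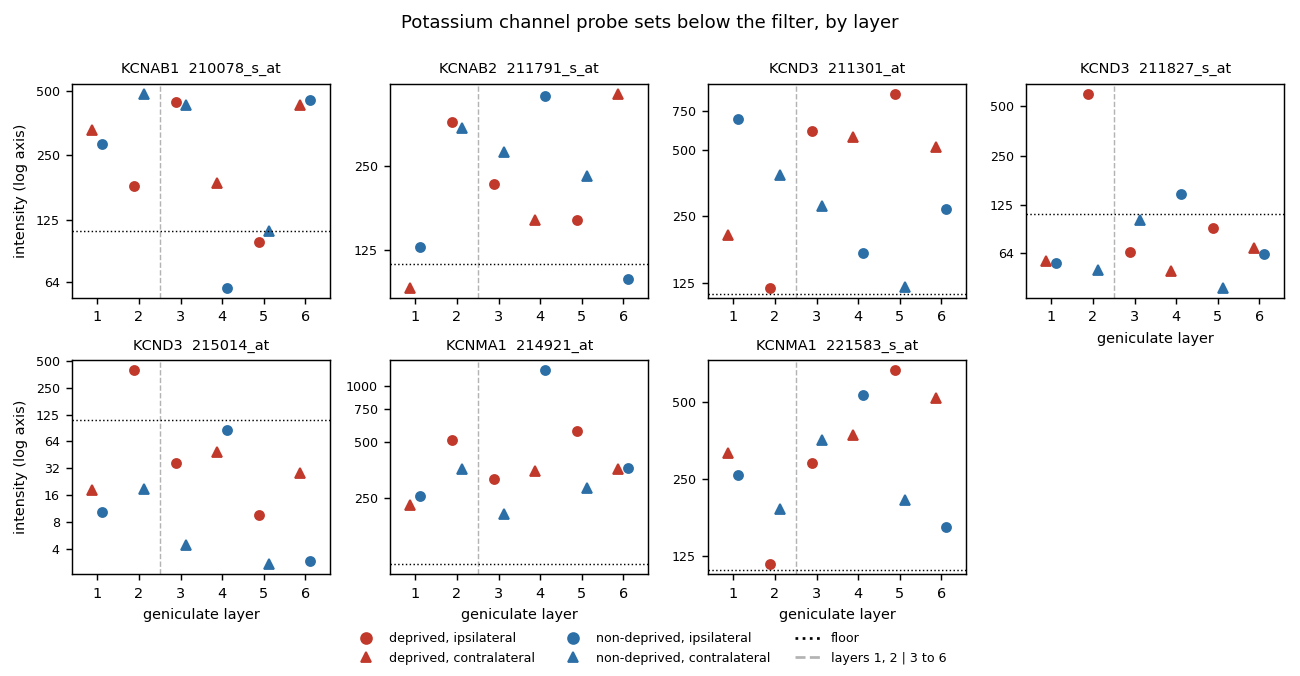
Intensity (log axis, its range differing between panels) of the 7 probe sets below the filter in the 12 samples by layer, with colours for deprivation and shapes for hemisphere; the dotted line is the floor of 110.8. KCND3 211827_s_at and 215014_at stand above the floor in deprived layer 2 (592.8 and 395.7) and read 146.8 or less elsewhere.

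Other potassium channel genes were read from the same fit. Of 35 other voltage-gated pore subunits listed, 21 were on the array and 7 genes (8 probe sets) were tested, and 0 passed by limma with deprivation or between classes. Between classes 7 of the 8 were negative, with a median of -0.40, against 0.25 for the members. KCNS1, a silent subunit that joins Kv2 channels, had -0.99 ± 0.31 (limma adjusted p = 0.153), and KCNB2, a Kv2 delayed rectifier, had -0.70 ± 0.24 (adjusted p = 0.195) with its other probe set at -0.42. With deprivation KCNS3, another silent Kv2 partner, had 0.83 ± 0.28 (adjusted p = 0.249), and KCNB2 had 0.47 ± 0.23 (adjusted p = 0.443) by 1 probe set and 0.07 by the other.

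Of 17 auxiliary subunits listed, 6 were tested and 0 passed. KCNAB3, the third Kv beta gene, had -0.48 ± 0.27 with deprivation and -0.55 ± 0.28 in magnocellular layers (limma adjusted p = 0.504 and 0.385). KCNIP1, a calcium-binding partner of Kv4 channels such as KCND3, had 0.27 ± 0.19 with deprivation, and KCNMB1, a BK beta subunit, had -0.32 ± 0.18 in magnocellular layers (adjusted p = 0.63 and 0.444). Of the calcium- and sodium-activated channels 1 was tested, KCNN1 (-0.17 ± 0.16 and -0.14 ± 0.17). Of 15 two-pore channels, which carry background current, 4 genes were tested and 0 passed. KCNK1 had -0.95 ± 0.37 with deprivation (adjusted p = 0.331) with its other probe set at 0.23, and KCNK10 had 0.42 ± 0.28, while between classes KCNK3 had 0.22 ± 0.29 and KCNK10 0.19 ± 0.29.

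Of 11 genes whose products cluster Kv1 channels on axons and at synapses, 10 were tested by 18 probe sets and 0 passed by limma in either contrast. DLG1, a scaffold protein, had 0.62 ± 0.16 with deprivation (3576 ± 685 against 2323 ± 430, SD, n = 6 each, limma adjusted p = 0.147), and ADAM23 had -0.33 ± 0.17 by 1 probe set and -0.04 by the other. In magnocellular layers EPB41L3, the protein 4.1B that anchors juxtaparanodal complexes, had 0.58 ± 0.17 (adjusted p = 0.143) with its other probe sets at 0.28 and 0.14. ADAM23, a receptor of LGI proteins, had 0.78 ± 0.25 (adjusted p = 0.165), with 0.05 by its other probe set.

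For comparison, the voltage-gated sodium channel subunits had 1 of 5 tested probe sets past the threshold between classes, SCN3B, which fell in magnocellular layers (269.4 ± 92.3, SD, n = 4, against 758.1 ± 217, n = 8; -1.50 ± 0.26, limma adjusted p = 0.0133). The next smallest p was that of SCN3A (-0.48 ± 0.27, adjusted p = 0.443). With deprivation SCN8A had -0.57 ± 0.27 and SCN3B 0.51 ± 0.25, and neither passed (adjusted p = 0.416 and 0.424). From the list of T-type calcium and HCN genes, 4 probe sets of CACNA1G and CACNA1I were tested and no HCN gene was, and 0 of the 4 passed in either contrast by limma. T-type channels drive burst firing in relay cells. CACNA1G, a T-type pore, had -0.52 ± 0.19 and -0.42 ± 0.19 with deprivation and 0.20 ± 0.20 in magnocellular layers, where CACNA1I had -0.55 ± 0.30 (limma adjusted p from 0.293 to 0.684) with its other probe set at 0.19.

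Among the 7284 other tested genes, the highest correlations with a member over the 12 arrays can be large by chance, to a level not computed here. The genes whose log2 values followed a member most closely were therefore named as a description only. They were CAMLG (r = 0.94) and NAA16 (0.892) for KCND3, and REX1BD (0.865) and PHKG2 (0.863) for KCNH2 205262_at. For KCNA1 they were ARAP3 (0.925) and PML (0.918), for KCNAB1 210079_x_at MYG1 (0.89) and GABARAPL2 (0.87), and for KCNAB2 CKAP4 (0.90) and EPB41L1 (0.883). For KCNC1 they were RUSF1 (0.898) and DHX30 (0.875), and for KCNMA1 HEY1 (0.808) and SNRNP40 (0.796). Between different member genes the highest correlation was 0.55, of KCND3 with KCNMA1, and the lowest was -0.67, of KCNA1 with KCNAB1 210471_s_at.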

How the data were processed

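The authors deposited linear, positive intensity values for 22283 probe sets of a human Affymetrix array. Their software is not given in the sources used here, and detection calls were not used. Trimmed means (2% per end) were nearly equal, so the values were used as deposited. Macaque RNA can bind human probes unequally, so a level was compared between arrays within a probe set only. Gene names came from the platform's annotation, and all 8 member symbols were in the macaque gene table. No build was named and no sequence table was used here, so neither coordinates nor sequences are given.

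A floor at the 20th percentile of all values (110.8) was set before taking log2. Non-control probe sets whose mean log2 reached the median of the table (11105) were tested with lmFit and eBayes (trend) in limma 3.58.1 (R 4.3.3) by two-sided tests of additive terms for deprivation, cell class and hemisphere (8 residual degrees of freedom), with Benjamini-Hochberg adjustment over all tested. The interaction was added to that fit. Probe sets of a gene were compared by exact permutation of the 12 arrays, deprived against non-deprived and magnocellular against parvocellular. All members and the probe sets of smallest p in 7 lists are named, with the 2 genes most correlated with each member. The members and lists were chosen with earlier results of these data known. On 10 simulated sets with 200 changed among 11105 probe sets, the fit called 66.4% of log2 deprivation changes of 1 and 97% of 2, and 59.6% and 96.4% of cell class changes, with 5.74% and 5.45% of calls on unchanged probe sets. The simulated noise was normal and independent between arrays and probe sets, with no error shared within an array and no outlying samples. Recovery and false calls on the real arrays may therefore be worse than these rates. Precision is limited by having 12 arrays.

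Alternatives tried were a block for layer number, no hemisphere or no class term, quantile normalization, median centring, no or a stricter filter (60th percentile), no floor with log2(value + 16), no trend, the GAPDH or ACTB ratio as a covariate, subsets of arrays, and leaving out each array.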

Additional observations from a re-analysis of the deposited data

Results flagged for a closer look

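Single samples stood far from the rest of their group in 7 of 60 groups of member values examined on the log2 scale, where chance gives about 1 in 20. The groups share samples, so 1 sample can be flagged more than once, and the count cannot be weighed against that rate. Each number below is the gap to the nearest sample divided by the range of the group. KCNC1 208477_at in non-deprived layer 6 read 119.5, against 1742 to 2288 in the other non-deprived samples (0.908) and 595 to 2051 in the other parvocellular samples (0.565). KCNMA1 221584_s_at was high in non-deprived layer 1 among non-deprived samples (5973 against 3344 to 3755, 0.80). It was also high in deprived layer 1 among contralateral samples (6800 against 3375 to 4103, 0.721) and in deprived layer 5 among parvocellular samples (5635 against 3344 to 4103, 0.608). KCNAB1 210471_s_at was high in deprived layer 1 among contralateral samples (6888 against 3633 to 4483, 0.671). KCNAB2 203402_at was high in non-deprived layer 2 among contralateral samples (1691 against 858.3 to 1092, 0.645).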

How the results depend on the processing

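With deprivation, 0 members passed in all 14 other settings and without any single array, and the interaction count stayed 0 in all that were run. The KCND3 class call held in 5 of 11 other settings, so the class count was 0 without a filter, without a trend, with either control ratio as a covariate, leaving out the 2 arrays highest in GAPDH ratio and in non-deprived samples alone. KCND3 then had 0.91 (adjusted p = 0.113 and 0.0606), 0.79 (GAPDH, 0.0651), 0.62 (ACTB), 0.82 and 0.66. The causes were not tested, although the last 2 hold fewer samples and the first more tests. Without single arrays the class and the hemisphere count ranged from 0 to 1 and the deprivation, interaction and probe-set-pair counts stayed at 0. Pair counts were also 0 with quantile normalization, no floor and without those 2 arrays.

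With deprivation and class, signs turned only where no change passed, and the cause was not tested. Deprivation changes turned for KCNAB1 210471_s_at (-0.05 with median centring, -0.10 in parvocellular layers alone) and KCNC1 (0.18 there). Class changes turned for KCNAB1 210079_x_at (0.07 with centring, 0.05 with the GAPDH and 0.09 with the ACTB ratio), KCNC1 (-0.23, GAPDH), KCNA1 (0.10) and KCNH2 205262_at (-0.52, both ACTB), and KCNAB1 210471_s_at (-0.02 in non-deprived samples). Without single arrays the ranges that crossed 0 were -0.02 to 0.19 (KCNAB1 210471_s_at, deprivation), and for class -0.33 to 0.02 (KCNA1), -0.13 to 0.14 (KCNAB1 210079_x_at), -0.49 to 0.37 (KCNC1) and -0.13 to 0.53 (KCNH2 210036_s_at).

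With the layer number as a replicate block 0 members passed with deprivation. Same-layer samples did not deviate together (r from -0.25 to 0.00, each also differing in hemisphere), and 0 of 12 samples correlated best with their own number. Over all probe sets the counts were 0 to 9 with deprivation (7 as reported), 2 to 86 for class (80), 0 to 56 for hemisphere (12) and 0 to 5 for the interaction (0), and 0 to 43, 17 to 188, 0 to 851 and 0 to 208 without single arrays. The settings for hemisphere, interaction and pairs and the mean of a gene's tested probe sets, which called the same counts (0 and 1), were chosen after seeing the data.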
